A study of Rattus norvegicus with 9 samples.

Results

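The genes of the Piezo mechanosensors (Piezo1 and Piezo2) and of the acid-sensing ion channels (Asic1, Asic2, Asic3 and Asic4) were followed in RNA-Seq libraries of rat dorsal root ganglia (DRGs). They were chosen by gene symbol, and all 6 were found among the 20413 genes of the expression table and among the 17187 genes that were tested. The ganglia were the right (ipsilateral) L4–6 DRGs of young adult male Sprague Dawley rats, taken on day 10. The labels call the control libraries Con. They are taken here to be the Sham group of the study's methods, whose rats got anesthesia and an opened ring that caused no ischemia, although no label states this. Rats of the chronic post-ischemia pain (CPIP) group had 1 hind paw made ischemic with a tight O-ring and then reperfused. The CPIP+EA group underwent the same ischemia and received electroacupuncture (EA) at bilateral ST36 and BL60 points once daily for 10 days. Each group had 3 libraries, 9 in all. None of these 9 libraries came from rats with EA but no ischemia or with a mock EA.

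Ganglia at these levels contain the somata of neurons that sense touch, limb position and injury in the leg. Piezo channels open when the cell membrane is stretched. Piezo2 is the main touch and proprioception channel of sensory neurons, whereas Piezo1 is best known from endothelium and red cells, where it senses shear stress. ASICs are trimeric sodium channels of the degenerin/ENaC family that open when the extracellular fluid turns acidic, as it does in ischemic tissue. Asic1 and Asic3 form proton-gated channels in sensory neurons, Asic2 tunes channels that it forms together with them, and Asic4 does not form a proton-gated channel on its own.

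Levels are given in the FPKM unit (fragments mapped to a gene, divided by transcript length and by the fragments of the library), as the authors deposited them with 2 decimals. FPKM values are scaled by transcript length, so levels of different genes can be set side by side, but they pool all transcripts of a gene. Since the table holds no counts of reads, no counting error can be given for a value. The 9 libraries had between 18279 and 18456 genes above 0 FPKM. The 12 pan-neuronal marker genes (among them Tubb3, Snap25 and Uchl1) summed to between 9227.7 and 11172.7 FPKM, and each of the 12 was above 0 in every library. CPIP+EA replicate 3 stood apart from the other libraries, with the highest summed neutrophil and red cell markers (630.0 and 2407.6 FPKM, against at most 266.0 and 1535.7 in the others). In bulk ganglia, fewer cells of a type and less RNA per cell cannot be told apart.

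Asic1 and Asic2 were the 2 of these 6 genes whose FPKM were lower in every CPIP and CPIP+EA library than in every Sham library, and the values of Asic3 overlapped. Over all genes tested, CPIP lay wholly below Sham for 7.9% and CPIP+EA for 7.32%. The share of genes lower in both groups at once was not counted. The bases before the start sites of Asic1, Asic2 and Asic3 are printed so that these regions can be set side by side. RefSeq windows were at hand for 4 of the 6 genes, and that of Piezo2 is not shown. Asic3 is thus the only gene with overlapping values that stands beside Asic1 and Asic2 here. The windows of Asic1, Asic2 and Asic3 are shown. They are the 250 bases upstream of each start in RefSeq, build GRCr8, written 5′ to 3′ on the gene's strand. Capitals mark the GC box GGGCGG or its reverse complement CCGCCC, and the CCAAT box or its reverse complement ATTGG.
Asic1, chr7:132678457-132678706, plus strand: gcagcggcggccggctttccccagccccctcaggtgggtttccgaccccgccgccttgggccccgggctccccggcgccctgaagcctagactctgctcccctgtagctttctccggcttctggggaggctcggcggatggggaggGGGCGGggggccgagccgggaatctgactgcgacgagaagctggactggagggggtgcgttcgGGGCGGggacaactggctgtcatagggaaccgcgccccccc
Asic2, upstream start, chr10:67438238-67438487, minus strand: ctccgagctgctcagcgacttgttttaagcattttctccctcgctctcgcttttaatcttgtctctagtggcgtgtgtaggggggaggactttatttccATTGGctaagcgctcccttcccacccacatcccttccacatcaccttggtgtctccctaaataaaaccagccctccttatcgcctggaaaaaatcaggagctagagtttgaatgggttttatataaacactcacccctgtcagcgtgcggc
Asic2, downstream start, chr10:66636062-66636311, minus strand: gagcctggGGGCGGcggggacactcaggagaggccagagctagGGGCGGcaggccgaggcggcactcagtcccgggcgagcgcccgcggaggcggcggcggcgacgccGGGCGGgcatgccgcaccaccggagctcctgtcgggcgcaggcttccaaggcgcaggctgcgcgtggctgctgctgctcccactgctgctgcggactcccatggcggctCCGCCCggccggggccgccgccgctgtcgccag
Asic3, chr4:11657368-11657617, minus strand: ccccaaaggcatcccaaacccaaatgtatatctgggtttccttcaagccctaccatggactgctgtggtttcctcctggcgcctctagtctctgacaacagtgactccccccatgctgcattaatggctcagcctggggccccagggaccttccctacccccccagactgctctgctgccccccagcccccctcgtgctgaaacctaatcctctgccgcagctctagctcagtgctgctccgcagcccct
Asic2 is listed with both of these starts, and the table gives 1 FPKM value for the gene. The GC box occurred 2 times before the Asic1 start and 4 times before the downstream Asic2 start, and 0 times before the other Asic2 start and before Asic3. Among all 33469 upstream windows, 30.5% held it. The CCAAT box was found 1 time, before the upstream Asic2 start, and 34.0% of all windows held it. The AP-1 site TGACTCA (reverse complement TGAGTCA) was in 0 of these 4 windows and in 4.05% of all windows. All 3 motifs were searched on both strands, and the matches shown do not overlap. The GC content was 72.8% before Asic1, 78.8 and 49.6% before the downstream and the upstream Asic2 start, and 60.4% before Asic3, with a median of 51.2% over all windows.

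Asic3, Piezo2 and Asic1 were expressed at about the same high level, and the other 3 genes were far lower. Over the 9 libraries the mean level was 45.0 FPKM for Asic3, 41.9 for Piezo2 and 39.4 for Asic1, levels above 88.4, 87.3 and 86.5% of the genes tested. Asic2 had a mean of 6.90 FPKM (above 48.8% of the genes tested) and Piezo1 of 2.93 FPKM (above 32.5%). Asic4 was near the limit of the table, with 0.348 FPKM on average (above 9.48%) and between 0.21 and 0.46 FPKM in single libraries. In Sham and in CPIP+EA the values of Asic3, Piezo2 and Asic1 overlapped. Under CPIP they did not, with 47 to 49.03 FPKM for Asic3, 40.48 to 42.94 for Piezo2 and 33.01 to 37.35 for Asic1. Asic2, Piezo1 and Asic4 followed below them in this order in each of the 9 libraries.

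**Figure D1:**
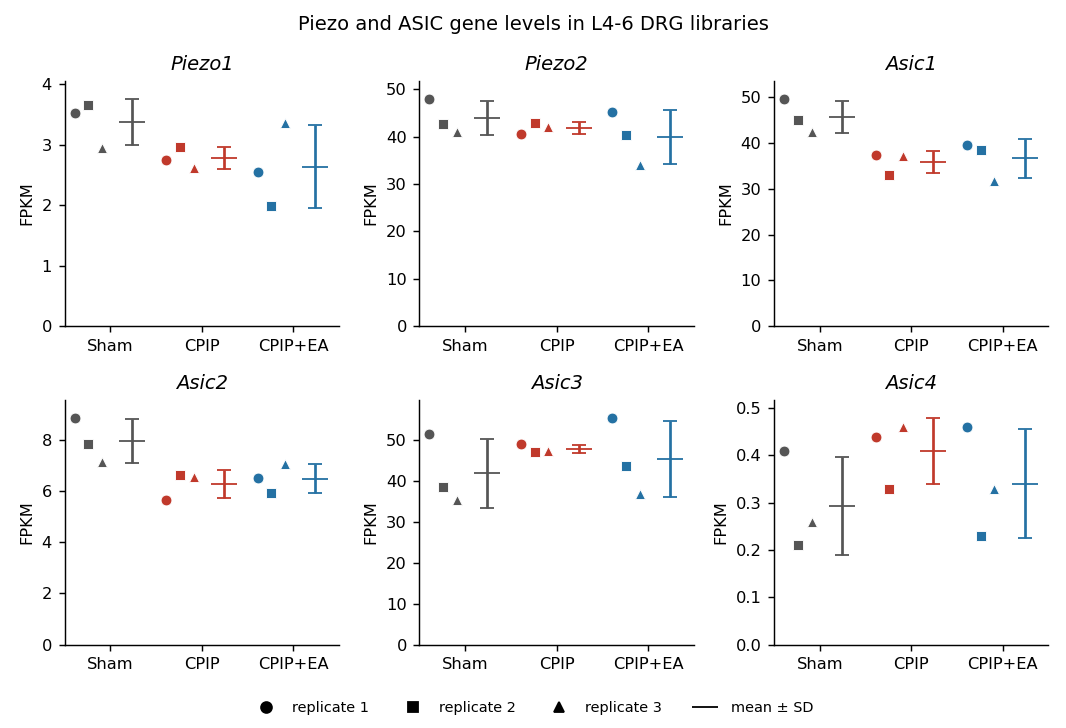
FPKM (vertical axes, from 0) of the 6 genes in each of the 3 Sham, 3 CPIP and 3 CPIP+EA libraries. Each point is 1 library, with its replicate number given by the marker, and the bars give mean ± SD. For Asic1 and Asic2 all CPIP and CPIP+EA libraries lie below all Sham libraries, and for the other 4 genes the groups overlap.

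Piezo2 stayed near 40 FPKM in every group. It had 47.93, 42.74 and 40.97 FPKM in Sham, 40.48, 42.94 and 42.01 under CPIP, and 45.31, 40.46 and 34.05 under CPIP+EA. The groups overlapped, and the widest spread was within CPIP+EA. The log2 fold change for CPIP against Sham was -0.07 (95% interval -0.30 to 0.16, limma adjusted p of 0.953), on the log2(FPKM + 0.5) scale that is used for all fold changes here. It was -0.0016 without Sham replicate 1 and -0.11 without Sham replicate 3. For CPIP+EA against CPIP it was -0.07 (-0.30 to 0.15, limma adjusted p of 0.996). These intervals leave out a 1.5-fold difference in either direction.

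Piezo1 was at a low level throughout. It had 3.53, 3.65 and 2.94 FPKM in Sham, 2.75, 2.97 and 2.61 under CPIP, and 2.55, 1.99 and 3.36 under CPIP+EA. CPIP overlapped Sham only between its highest and the lowest Sham library, and CPIP+EA held both the lowest and a high value. The log2 fold change was -0.24 for CPIP against Sham (95% interval -0.60 to 0.12, limma adjusted p of 0.804) and -0.09 for CPIP+EA against CPIP (-0.45 to 0.27, limma adjusted p of 0.996). CPIP+EA replicate 3, the highest of its group for Piezo1, was also highest of its group in the summed endothelial markers, with 102.3 against 72.7 and 72.1 FPKM. The same library was highest in the summed fibroblast markers, with 2959.2 against 1352.4 and 1345.8 FPKM. For CPIP+EA against Sham the log2 fold change of Piezo1 was -0.32 (-0.69 to 0.04, limma adjusted p of 0.461), and -0.49 without this library (limma adjusted p of 0.150). Without CPIP+EA replicate 2, the lowest of its group, it was -0.17 (limma adjusted p of 0.755). The part of endothelial cells and fibroblasts in the Piezo1 value was not tested.

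Asic1 was lower after ischemia in every library. It had 49.6, 45.04 and 42.51 FPKM in Sham, 37.35, 33.01 and 37.16 under CPIP, and 39.64, 38.53 and 31.79 under CPIP+EA. The highest of the 6 libraries after ischemia lay below the lowest Sham library. Means were 45.7 ± 3.59 FPKM for Sham, 35.8 ± 2.45 for CPIP and 36.7 ± 4.25 for CPIP+EA (± SD, n = 3 libraries), so that the CPIP mean was 21.6% lower and the CPIP+EA mean 19.8% lower than Sham. Its log2 fold change for CPIP against Sham was -0.35 (standard error 0.10, 95% interval -0.57 to -0.13), with an unadjusted limma p of 0.00604 and an adjusted p of 0.240 over all genes tested. Asic1 therefore did not pass the threshold, an adjusted p under 0.01 with at least a 1.5-fold change. For CPIP+EA against Sham, which uses the same Sham libraries, the log2 fold change was -0.32 (-0.54 to -0.10, limma adjusted p of 0.213). With EA, it was 0.03 against CPIP (-0.19 to 0.25, limma adjusted p of 0.996), and the values of these groups overlapped.

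Asic2 had the same arrangement at a lower level. It had 8.86, 7.83 and 7.14 FPKM in Sham, 5.64, 6.63 and 6.53 under CPIP, and 6.51, 5.9 and 7.04 under CPIP+EA. All Sham libraries were above all others, with a narrow gap between the lowest Sham and the highest CPIP+EA library. The CPIP mean was 21.1% lower and the CPIP+EA mean 18.4% lower than the Sham mean. The log2 fold change was -0.32 for CPIP against Sham (standard error 0.11, 95% interval -0.56 to -0.08, unadjusted limma p of 0.0156, adjusted p of 0.383). It was -0.27 for CPIP+EA against Sham (-0.51 to -0.03, limma adjusted p of 0.341) and 0.05 for CPIP+EA against CPIP (-0.20 to 0.29, limma adjusted p of 0.996). Without CPIP+EA replicate 3, CPIP+EA against Sham gave -0.33 for Asic2 and -0.22 for Asic1 (limma adjusted p of 0.260 and 0.296).

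Asic3 had 51.42, 38.57 and 35.39 FPKM in Sham, 49.03, 47 and 47.33 under CPIP, and 55.43, 43.72 and 36.9 under CPIP+EA. The CPIP libraries were close together, whereas Sham and CPIP+EA each ran from a low to a high library and overlapped all others. The log2 fold change was 0.21 for CPIP against Sham (95% interval -0.16 to 0.57, limma adjusted p of 0.851), 0.37 without Sham replicate 1 and 0.10 without Sham replicate 3. It was -0.09 for CPIP+EA against CPIP (-0.46 to 0.27, limma adjusted p of 0.996). The libraries highest in Asic3, Sham replicate 1 and CPIP+EA replicate 1, were also the highest in the summed pan-neuronal markers, with 11172.7 and 11167.8 FPKM, and CPIP+EA replicate 3 was the lowest of all in these markers and the lowest of its group in Asic3. The part of neuron content in the Asic3 values was not tested.

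Asic4 had 0.41, 0.21 and 0.26 FPKM in Sham, 0.44, 0.33 and 0.46 under CPIP, and 0.46, 0.23 and 0.33 under CPIP+EA. These values overlapped, and the table resolves them in steps of 0.01 FPKM. The log2 fold change was 0.20 for CPIP against Sham (95% interval -0.13 to 0.54, limma adjusted p of 0.831) and -0.12 for CPIP+EA against CPIP (-0.46 to 0.21, limma adjusted p of 0.996). The pseudocount of 0.5 exceeds the level of Asic4, so that these fold changes understate its differences. With a pseudocount of 0.1 they were 0.40 and -0.24. At the pseudocount of 0.5 and with 1 library left out, they ran from 0.13 to 0.31 and from -0.22 to -0.025.

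**Figure D2:**
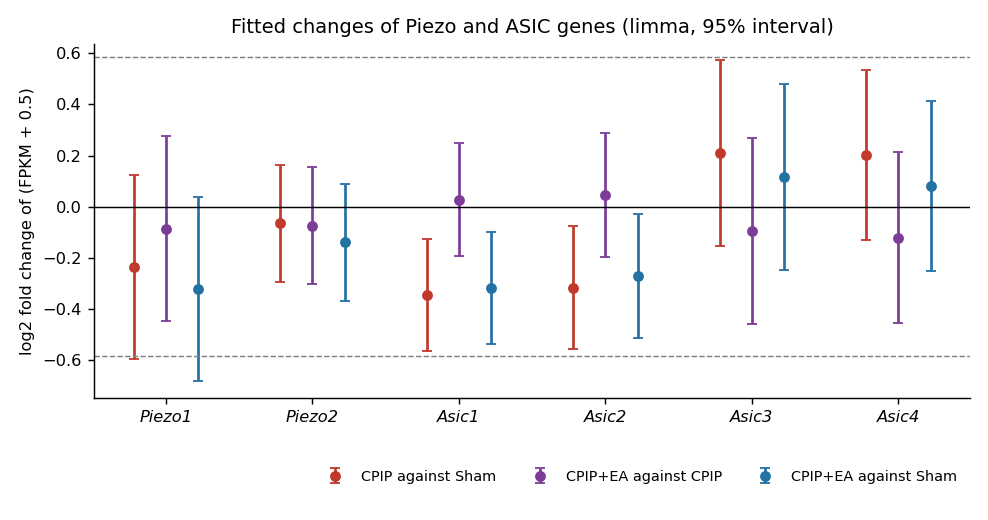
Log2 fold change of FPKM + 0.5 (vertical axis) of each gene in 3 comparisons of all 9 libraries, with limma's 95% interval as bars and dashed lines at 1.5-fold. The intervals of Asic1 and Asic2 lie below 0 against Sham for both CPIP and CPIP+EA, and every interval for CPIP+EA against CPIP includes 0.

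Of the 6 genes, 0 passed the threshold for CPIP against Sham, where 61 of the 17187 genes tested did (0.355%). Asic1 and Asic2, 2 of the 6, were lower at an unadjusted limma p under 0.05, where 4.06% of all genes were lower at that level. The FPKM values of CPIP lay wholly below those of Sham for the same pair, as they did for 7.9% of all genes. For CPIP+EA against Sham, 0 of the 6 genes passed the threshold against 0.483% of all genes. The same pair was lower at an unadjusted limma p under 0.05 against 5.63% of all genes, and its values did not overlap against 7.32% of all genes. For CPIP+EA against CPIP, limma called 0 of the 6 genes and 0% of all genes. Among the 6, 0 reached an unadjusted limma p under 0.05 there, where 4.29% of all genes did, and the values of all 6 overlapped. The median log2 fold change of the 6 genes was -0.15, -0.08 and -0.21 for CPIP against Sham, CPIP+EA against CPIP and CPIP+EA against Sham, with medians over all genes of -0.01, 0.01 and 0.00.

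Since the values of CPIP and CPIP+EA overlapped for all 6 genes, their mean was also set against Sham in the same fit, a contrast added after the values were seen. Asic1 had a log2 fold change of -0.33 (standard error 0.08, 95% interval -0.52 to -0.14, limma adjusted p of 0.113) and Asic2 of -0.29 (standard error 0.09, -0.50 to -0.09, limma adjusted p of 0.229). With each library left out in turn, the limma adjusted p of Asic1 lay between 0.0852 and 0.365, and that of Asic2 between 0.156 and 0.526. Piezo1 had -0.28 (-0.59 to 0.03, limma adjusted p of 0.487). None of the 6 genes passed the threshold in this contrast, where 103 genes (0.599%) did.

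Neuronal markers are given beside the lower Asic1 and Asic2 values, since both genes are expressed in neurons. The summed pan-neuronal markers were 11172.7, 10049.8 and 9359.5 FPKM in Sham, 9874.3, 9673.9 and 10090.7 under CPIP, and 11167.8, 10545.7 and 9227.7 under CPIP+EA. The groups overlapped (exact two-sided permutation p of 0.8 for CPIP against Sham, 0.5 for CPIP+EA against CPIP and 1 for CPIP+EA against Sham, where 3 against 3 libraries cannot give less than 0.1). Relative to the mean log2 level of these markers in each library, the log2 fold change of Asic1 was -0.32 for CPIP against Sham (limma adjusted p of 0.226) and that of Asic2 was -0.29 (limma adjusted p close to 1). Single markers of the list, picked after their values were seen, went both ways, with log2 fold changes of 0.41 for Tubb3 and 0.38 for Stmn2, and of -0.34 for Rbfox3, -0.30 for Nefm and -0.24 for Snap25 (limma adjusted p of at least 0.215), so that Rbfox3 had about the same value as Asic1. The part of neuron content in the Asic1 and Asic2 values was not tested.

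The balance of the 3 abundant genes can be read within a library, where scaling drops out. In Sham, Asic1 was above Piezo2 in 3 of 3 libraries. In all 6 libraries after ischemia the order was Asic3 above Piezo2 above Asic1, and 0 of 3 Sham libraries had this order. The ratio of Asic3 to Asic1 was 1.04, 0.856 and 0.833 in Sham, 1.31, 1.42 and 1.27 under CPIP, and 1.40, 1.13 and 1.16 under CPIP+EA. The lowest ratio after ischemia was thus above the highest in Sham. The exact two-sided permutation test gave p = 0.1 for CPIP against Sham and for CPIP+EA against Sham, the smallest value that 3 against 3 allows, and 0.3 for CPIP+EA against CPIP. Adjusted over the 30 ratio and share comparisons made, the first pair of p-values became 0.231. Asic1 itself read lower, and a ratio to Asic1 was wholly higher in CPIP than in Sham for 60.3% of 13808 expressed genes, and in CPIP+EA than in Sham for 44.1%, so a higher ratio to Asic1 does not by itself set Asic3 apart.

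The ratio of Asic3 to Piezo2 does not contain Asic1. It was 1.07, 0.902 and 0.864 in Sham, 1.21, 1.09 and 1.13 under CPIP, and 1.22, 1.08 and 1.08 under CPIP+EA. These groups did not overlap Sham, although Sham replicate 1 came close to the lowest CPIP+EA library. A ratio to Piezo2 was wholly higher in CPIP than in Sham for 11.3% of expressed genes and in CPIP+EA than in Sham for 12.6%. The ratio of Piezo2 to Asic1 was 0.966, 0.949 and 0.964 in Sham and between 1.05 and 1.30 in the other 6 libraries. The ratio of Asic2 to Asic1 was 0.173 ± 0.00534 in Sham, 0.176 ± 0.0249 under CPIP and 0.180 ± 0.0367 under CPIP+EA (± SD, n = 3 libraries), and the groups overlapped.

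**Figure D3:**
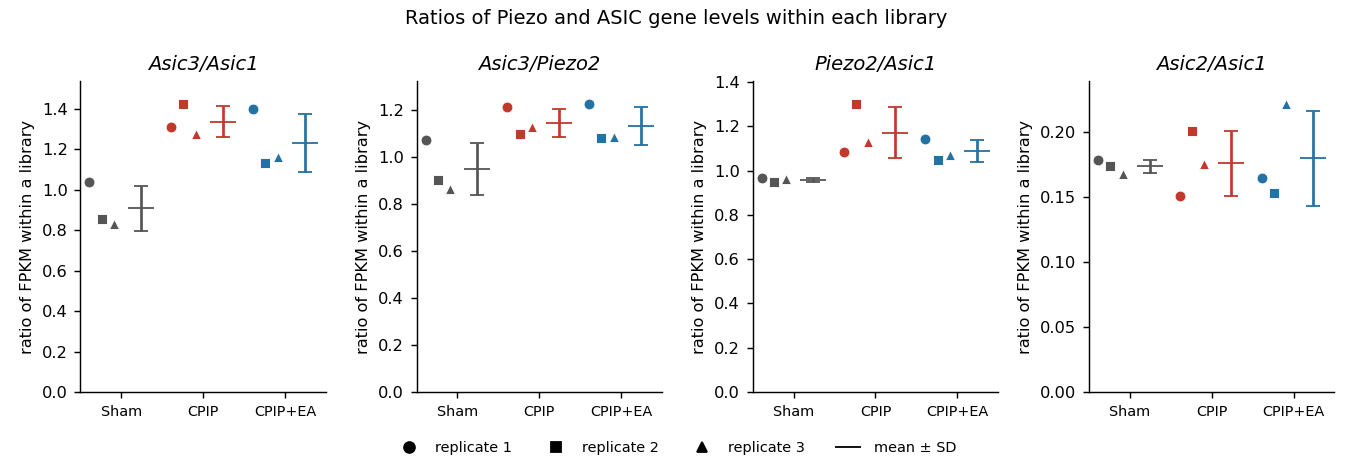
Ratios of FPKM within a library (vertical axes, from 0) for 4 pairs of genes in the 3 groups. Points are libraries with the replicate number given by the marker, and bars give mean ± SD. Asic3/Asic1, Asic3/Piezo2 and Piezo2/Asic1 lie above all Sham libraries in each of the 6 CPIP and CPIP+EA libraries, while Asic2/Asic1 overlaps.

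As a share of the summed ASIC FPKM, Asic1 took 48.0 ± 2.63% in Sham, 39.7 ± 1.48% under CPIP and 41.4 ± 2.40% under CPIP+EA (± SD, n = 3 libraries). Asic3 took 43.4 ± 2.81%, 52.9 ± 1.15% and 50.8 ± 3.11% (± SD, n = 3 libraries). Asic2 held between 6.10 and 9.26% and Asic4 under 0.51% of the sum in single libraries. The sum itself was 95.7 ± 13.0 FPKM in Sham, 90.3 ± 2.93 under CPIP and 88.8 ± 13.0 under CPIP+EA (± SD, n = 3 libraries), with exact permutation p of 0.8 for CPIP against Sham. The shares add up to the whole and are not separate results. The Asic1 share lay below and the Asic3 share above all Sham libraries under CPIP and under CPIP+EA (exact permutation p of 0.1 each, adjusted 0.231). The Asic2 share was below and the Asic4 share above all Sham libraries under CPIP (exact permutation p of 0.1 each), and both overlapped Sham under CPIP+EA (exact permutation p of 0.4 and 0.3).

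Among other mechanosensitive channels, Tmem150c and Pkd1 were lower in all 6 CPIP and CPIP+EA libraries than in every Sham library. Over all genes, CPIP lay wholly below Sham for 7.9% and CPIP+EA for 7.32%. Of 15 listed genes 14 could be tested, and 0 passed the threshold in any of the 3 comparisons. The median log2 fold change of the 14 was -0.04 for CPIP against Sham, with single genes from -0.20 to 0.24, and -0.02 for CPIP+EA against CPIP. At an unadjusted limma p under 0.05, 1 was lower for CPIP against Sham (Tmem150c) and 2 for CPIP+EA against Sham (Tmem150c and Pkd1), where 4.06 and 5.63% of all genes were. Tmem150c, which encodes tentonin 3, a protein tied to slowly adapting mechanical currents, had 37.5 ± 3.28 FPKM in Sham and 32.7 ± 1.14 in CPIP (± SD, n = 3 libraries). Its log2 fold change was -0.19 for CPIP against Sham (limma adjusted p of 0.502) and -0.19 with EA against Sham (limma adjusted p of 0.329). Pkd1, which encodes polycystin 1, had 19.1, 17.23 and 17.52 FPKM in Sham, 16.32, 15.82 and 16.91 under CPIP, and 16.54, 13.24 and 14.08 under CPIP+EA. Its log2 fold change was -0.13 for CPIP against Sham (limma adjusted p of 0.798) and -0.29 with EA against Sham (unadjusted limma p of 0.00798, adjusted p of 0.197). The stretch-gated Tmem63b, at 43.5 ± 3.22 FPKM in Sham and 43.9 ± 0.735 in CPIP (± SD, n = 3 libraries), was about as abundant as Piezo2, and its relative Tmem63c was at 29.1 ± 3.87 and 33.1 ± 3.67 FPKM. Trpa1, a channel of nociceptors, had a log2 fold change of -0.20 (limma adjusted p of 0.904). Kcnk4 (the potassium channel TRAAK) and Tmem120a had -0.01 and 0.05. Tmc2, the runner-up by p-value, was at only 0.120 ± 0.0200 FPKM in Sham and 0.240 ± 0.108 in CPIP (± SD, n = 3 libraries). With EA, the smallest limma p-values against CPIP were those of Pkd1 (log2 fold change -0.16, adjusted p of 0.996) and Tmem63a (-0.13, adjusted p of 0.996).

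Among 14 partners and regulators of Piezo and ASIC channels, 0 passed the threshold in any comparison, and the median log2 fold change for CPIP against Sham was 0.06. Stoml3, a stomatin-like protein that sensitizes Piezo channels, was at 0.10 ± 0.0173, 0.297 ± 0.0252 and 0.207 ± 0.0961 FPKM in Sham, CPIP and CPIP+EA (± SD, n = 3 libraries). The log2 fold change of CPIP against Sham was 0.41 (unadjusted limma p of 0.00903, adjusted p of 0.298). Both levels are below the pseudocount of 0.5, so that this value understates the difference. They are also near the limit of the table, which has steps of 0.01 FPKM and no read counts. Mdfic, an auxiliary subunit of Piezo channels, had 7.64 ± 0.599, 6.03 ± 0.364 and 7.48 ± 1.38 FPKM in Sham, CPIP and CPIP+EA (± SD, n = 3 libraries). It had a log2 fold change of -0.32 against Sham (limma adjusted p of 0.513), and CPIP+EA against CPIP gave 0.28 (limma adjusted p of 0.996). Sgk1, a kinase that regulates ENaC channels, had 13.8 ± 4.85, 21.7 ± 7.53 and 13.2 ± 1.23 FPKM in Sham, CPIP and CPIP+EA (± SD, n = 3 libraries). The corresponding log2 fold changes were 0.62 and -0.63 (limma adjusted p of 0.605 and 0.996). The CPIP libraries enter both comparisons of Mdfic and Sgk1, and none of these differences passed. The ASIC-binding proteins Pick1 and Stoml1 had log2 fold changes of 0.04 and 0.16 for CPIP against Sham, and stomatin (Stom) had 0.22 (limma adjusted p of 0.673). With EA against Sham, Stom had 0.41 (unadjusted limma p of 0.00513, adjusted p of 0.156) and Stoml1 0.27 (limma adjusted p of 0.346), the 2 of 14 tested partners higher at an unadjusted limma p under 0.05 in that comparison, against 6.59% of all genes. The other 6 partners above 10 FPKM on average (Anxa6, Atp2a2, Mtmr2, Cdh2, Dlg4 and Nedd4l) lay between -0.14 and 0.15 for CPIP against Sham and between -0.17 and 0.17 with EA against Sham.

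Other proton sensors could be tested for 12 of the 14 genes found in the table, and 0 passed the threshold. Trpv1, the heat and capsaicin channel that protons also activate, had 33.9 ± 2.06, 27.3 ± 2.74 and 29.2 ± 7.37 FPKM in Sham, CPIP and CPIP+EA (± SD, n = 3 libraries). Its log2 fold change for CPIP against Sham was -0.31 (limma adjusted p of 0.713). Kcnk18, the potassium channel TRESK, had 10.1 ± 1.08 FPKM in Sham and 7.05 ± 0.921 in CPIP (± SD, n = 3 libraries), a log2 fold change of -0.49 (limma adjusted p of 0.657). Kcnk1, a potassium channel of the same family, had a log2 fold change of -0.0034. Gpr132, a receptor of the proton-sensing G protein-coupled family, was at 0.397 ± 0.126, 0.727 ± 0.182 and 0.490 ± 0.0173 FPKM in Sham, CPIP and CPIP+EA (± SD, n = 3 libraries). Its log2 fold change was 0.45 for CPIP against Sham (unadjusted limma p of 0.0131, adjusted p of 0.350). For CPIP+EA against CPIP it was -0.30 (limma adjusted p of 0.996). For CPIP+EA against CPIP, the smallest unadjusted limma p-values were those of Kcnk9 (log2 fold change -0.58, p of 0.0477) and of Tmem206, which encodes the proton-activated chloride channel (0.16, p of 0.0495). After adjustment both limma p-values were 0.996. Summed over the list, FPKM were 95.6, 99.1 and 97.6 in Sham, 86.2, 86.1 and 88.9 under CPIP, and 97.1, 93.5 and 79.8 under CPIP+EA. CPIP lay below Sham without overlap (exact two-sided permutation p of 0.1, the smallest possible), and CPIP+EA overlapped both. Most of the lower sum under CPIP lay in Trpv1 and Kcnk18, so it does not stand for the whole list. The median log2 fold change of the 12 tested genes of the list was 0.00 for CPIP against Sham, with 1 gene higher and 0 lower at an unadjusted limma p under 0.05, against 4.61 and 4.06% of all genes. Of the other degenerin/ENaC genes, Scnn1a was at 0.497 FPKM in Sham and 0.640 in CPIP and Scnn1b at 0.127 and 0.197, with 0 past the threshold. Asic5 was listed at 0 in 8 libraries and at 0.03 FPKM in CPIP replicate 2.

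The limma fit did call genes of axon injury. All 10 listed genes (Atf3, Sprr1a, Gal, Npy, Gap43, Sox11, Jun, Vip, Stmn4 and Nts) rose in CPIP and in CPIP+EA relative to Sham, with median log2 fold changes of 2.32 and 2.38, and 0 of 10 passed the threshold for CPIP+EA against CPIP. These genes are known to rise in injured sensory neurons, and their change in these libraries was known when the list was made.

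**Figure D4:**
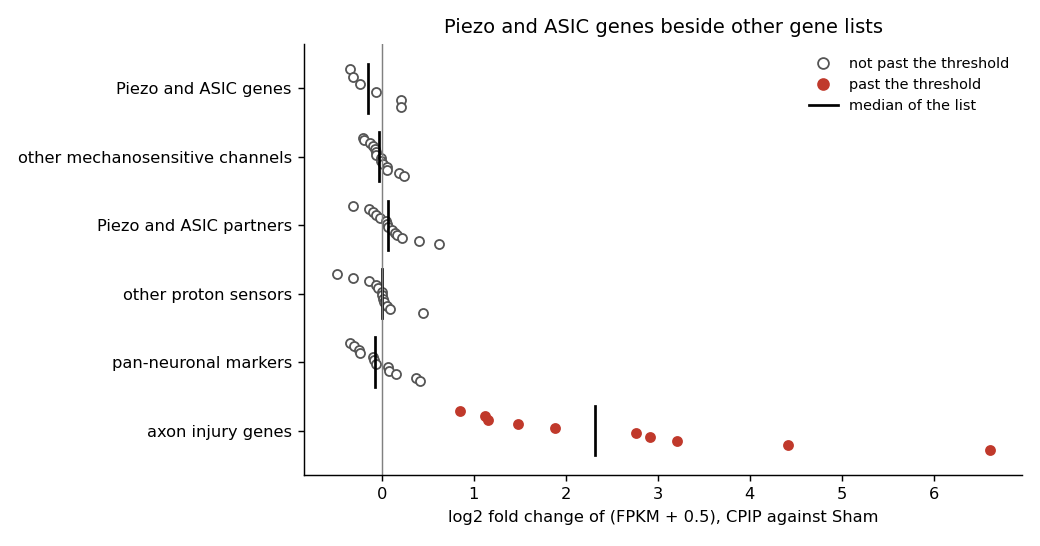
Log2 fold change of FPKM + 0.5 for CPIP against Sham (horizontal axis) for each tested gene of 6 lists. Filled points passed the threshold, open points did not, and black lines are list medians. The 6 Piezo and ASIC genes lie between -0.35 and 0.21, while all 10 axon injury genes lie at 0.85 or above.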

How the data were processed

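Total RNA of ipsilateral L4–6 DRGs was made into oligo(dT)-selected libraries by the authors and sequenced as short single-end reads on the BGISEQ platform. Reads were filtered with SOAPnuke, and the authors deposited an FPKM table of genes by libraries. The aligner, genome build and annotation are not given in the sources used here. The authors deposited beside them log2 ratios and p-values and q-values of their own comparisons, none of which were used. Groups and replicate numbers came from the sample labels.

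Here limma 3.58.1 (R 4.3.3) was fitted to log2(FPKM + 0.5) of the 9 libraries at once, with eBayes and a mean-variance trend, for genes with a mean of at least 0.1 FPKM. P-values were two-sided and Benjamini-Hochberg adjusted over the 17187 genes tested. Genes passed the threshold at an adjusted p under 0.01 if the fold change was 1.5 or more, or 0.667 or less, the cut-offs of the study. The study applied these cut-offs to its own test. It reported many more genes past them than limma did, for CPIP against Sham and for CPIP+EA against CPIP. Single sums and ratios were compared with exact permutation tests (scipy 1.17.1). The methods name 3 rats per group, and p-values measure the spread between these libraries.

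The 6 genes and the lists were chosen with earlier results of these data known. Those genes named from the channel, partner and sensor lists were those with a mean of at least 10 FPKM or the 2 smallest p-values of a list in CPIP against Sham or CPIP+EA against CPIP, and any gene past the threshold. Simulated data served to test the fit before use. Ratios, shares and the contrast of both ischemia groups with Sham were chosen after seeing the data. Alternatives were another pseudocount, filter, scaling or variance trend, the replicate number as a block, 2 groups only, a looser threshold and each library left out.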

Additional observations from a re-analysis of the deposited data

How the results depend on the processing

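The count of 0 Piezo and ASIC genes past the threshold held in all 3 comparisons under every alternative run, and with an adjusted p under 0.05 and no fold. Same-numbered libraries of different groups had deviations that correlated at -0.24 to 0.30 across genes, highest for Sham replicate 1 with CPIP+EA replicate 1. The labels name no pairing or batch, and such correlations cannot tell whether same-numbered libraries were handled together. With the replicate number as a block the count was also 0 in each comparison, and the limma adjusted p of Asic1 for CPIP against Sham was 0.253. The log2 fold changes of Asic1 and Asic2 kept their sign against Sham throughout. Between CPIP and Sham, Asic1 lay between -0.40 and -0.29, with an adjusted p between 0.0911 (without CPIP+EA replicate 3) and 0.568, and Asic2 lay between -0.39 and -0.24. Asic4 could not be tested with a mean of at least 1 FPKM. In the comparison of CPIP+EA with CPIP the signs rested on single libraries and turned without CPIP+EA replicate 2 for Piezo1, CPIP+EA replicate 3 for Piezo2 and Asic3, CPIP replicate 2 or CPIP+EA replicate 1 or 2 for Asic1, and CPIP replicate 1 or CPIP+EA replicate 3 for Asic2. With 1 library left out, log2 fold changes ran from -0.25 to 0.068 for Piezo1, -0.17 to 0.034 for Piezo2, -0.031 to 0.13 for Asic1, -0.023 to 0.11 for Asic2 and -0.25 to 0.043 for Asic3. Between CPIP+EA and Sham, Piezo1 ran from -0.49 to -0.17, Piezo2 from -0.24 to -0.032, Asic3 from -0.038 to 0.27 and Asic4 from -0.019 to 0.18, with Asic3 and Asic4 negative without CPIP+EA replicate 1. The summed pan-neuronal markers differed by -314 FPKM for CPIP against Sham (-732 to 175 with 1 library left out, positive without Sham replicate 1), by 434 for CPIP+EA against CPIP (7.05 to 977), and by 120 for CPIP+EA against Sham (-307 to 663, negative without Sham replicate 3 or CPIP+EA replicate 1, and -186 on the TPM scale). The cause was not tested. Over all genes, the number past the threshold for CPIP against Sham was 61, with 26 under the replicate block, 122 at an adjusted p under 0.05 without a fold and 30 (without Sham replicate 2 or CPIP replicate 3) to 62 with 1 library left out. Between CPIP+EA and Sham it was 83, with 42, 226 and 35 (without CPIP+EA replicate 2) to 82, and 51 with only the 2 groups fitted. Between CPIP+EA and CPIP it was 0, with 1 when only the 2 groups were fitted and 0 to 2 (without CPIP+EA replicate 1) with 1 library left out. The table holds no read counts, so the part of depth in the precision was not assessed here.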

Other observations

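Marker lists of neuron types and of other cells had 0 genes past the threshold in any of the 3 comparisons. For the 17 markers of low-threshold mechanoreceptors and proprioceptors, the neurons best known for Piezo2, the median log2 fold change was -0.12 for CPIP against Sham and -0.0049 for CPIP+EA against CPIP. For the 14 nociceptor markers it was -0.06 and -0.11, and for the 12 pan-neuronal markers -0.08 and 0.04. Schwann cell markers (9 genes) had 0.08 and -0.42, fibroblast markers (7 genes) -0.16 and -0.38, endothelial markers (9 genes) 0.01 and -0.045, satellite glia markers (8 genes) 0.03 and 0.046, and macrophage markers (8 genes) 0.19 and 0.19. Neutrophil markers (8 genes tested) had 0.17 and 0.55, and red cell markers (6 genes) -0.71 and 0.77. The summed satellite glia markers were 3918.6, 3951.7 and 4008.2 FPKM in Sham, between 4056.3 and 4425.7 in CPIP, and between 4279.2 and 4516.6 in CPIP+EA. Both groups lay above Sham (exact two-sided permutation p of 0.1 each, the smallest possible), but most of the sum is Apoe. The other 7 markers summed to between 483.0 and 498.9 FPKM in Sham, and the ranges of 475.9 to 490.3 under CPIP and 482.2 to 510.5 with EA overlapped it, a sum chosen after seeing the data. The 7 fibroblast markers had, for CPIP+EA against Sham, a median log2 fold change of -0.55, with 5 lower at an unadjusted limma p under 0.05, against 5.63% of all genes. Their sum overlapped Sham (exact two-sided permutation p of 0.3), since CPIP+EA had 1352, 1346 and 2959 FPKM and Sham 2061 to 3262. The part of these cells in the Piezo1, Asic1 and Asic2 values was not tested. CPIP+EA replicate 3 held the highest sum of the 9 libraries in neutrophil, red cell, macrophage and endothelial markers, at 630.0, 2407.6, 186.0 and 102.3 FPKM, and the lowest in pan-neuronal markers, at 9227.7 FPKM. Its Piezo2 and Asic1 values were the lowest of the 9 libraries.

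As a description of likeness, each gene was set beside the 13914 tested genes with a mean of at least 1 FPKM by Pearson's r of log2(FPKM + 0.5) over the 9 libraries, which share their groups and library composition. Asic1 was most like Slitrk3 (r = 0.99), a synaptic adhesion gene with 18.7 ± 2.21, 13.5 ± 1.26 and 13.7 ± 1.59 FPKM in Sham, CPIP and CPIP+EA (± SD, n = 3 libraries), followed by LOC100362176 (0.97). Piezo2 was most like Gsk3b (0.98) and Parm1 (0.98), Asic3 like Maneal and Atp6v0a1 (0.96 each), Piezo1 like Sulf1 and Heatr5a (0.96 each), Asic2 like Itga9 and Gas6 (0.95 each), and Asic4 like Cisd2 (0.94) and Enox2 (0.93). With 9 libraries and this many genes, values of this size are reached for every gene examined here.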
